A study of Homo sapiens with 6 samples.

Results

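The genes described here carry new proteins into the endoplasmic reticulum (ER) and move them between the ER and the Golgi apparatus. They were taken by name, 55 in all, without use of any measured value, and 51 of them had a probe set annotated with exactly 1 gene symbol among the 11963 genes so measured. SEC61G, COPG2, ARF1 and KDELR2 had none and were not analysed here. The 51 genes were read by 97 probe sets, and each gene is represented by its probe set with the highest mean over the arrays unless another is named. The data are 6 Affymetrix GeneChip arrays of SH-SY5Y, a human neuroblastoma cell line. Of these, 3 came from cells given free bilirubin (Bf) at 140 nM for 1 h and 3 from cells given the solvent, DMSO 0.6%, for the same time. Each array belongs to a separate biological replicate of its treatment, numbered 1 to 3 in both groups, and later time points were not analysed here. As a model it is a culture of tumour cells alone. The deposited values are on a log2 scale after variance-stabilizing normalization, so a difference of 1 means 2-fold where a probe set is bright and more than that where it is dim. The base was taken from the method of normalization, and if the values were natural logs each fold would be larger. Because probe sets differ in how brightly they hybridize, the level of one gene was not ranked against that of another.

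Secretory and membrane proteins are recognized as they emerge from the ribosome by the signal recognition particle (SRP), which docks them on its receptor at the SEC61 channel of the ER membrane. Signal peptidase then removes the leader peptide. Vesicles with a COPII coat carry cargo out of the ER, vesicles with a COPI coat return ER residents and receptors from the Golgi apparatus, and SNARE proteins fuse the vesicles with their target membrane. When unfolded proteins accumulate in the ER, the transcription factor XBP1 is known to raise many of these genes together, and an element to which it binds contains the letters TGACGTGG.

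The promoters of these genes shared that element more often than promoters in general did. Promoter windows of RefSeq (GRCh38.p14), from 250 bases before to 50 bases after the start of the gene, were matched by symbol for 49 of the 55 genes. The letters TGACGTGG, searched on both strands and so also as CCACGTCA, stood in a window of 12 of the 49 genes (24.5%), against 166 of 15842 protein-coding genes (1.05%). Counted by window and not by gene, they stood in 256 of all 35116 windows (0.729%). They stood in a window of 4 of 57 other genes of the early secretory pathway (7.02%) and of 1 of 21 genes (4.76%) of an unfolded protein response list. The ER stress element (ERSE) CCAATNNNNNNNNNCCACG, whose last letters also begin CCACGTCA, was found in 0 of the 49 genes, in 6 of the 21 (28.6%) of the unfolded protein response list and in 0.133% of protein-coding genes. The related element ERSE-II, ATTGG followed by any base and CCACG, was found in 0 of the 49, in 3 of the 21 (14.3%) and in 0.0947% of protein-coding genes. The 12 genes with TGACGTGG were SEC62, SSR3, SSR4, SRP19, SEC16A, SEC23A, SEC24A, COPA, COPB1, COPB2, KDELR3 and ARF1, and COPB2 held it in 2 places. The matches are given for the 5 of these genes whose values are given array by array, so that the shared letters can be compared across the channel, both coats and a retrieval receptor. Each is written 5′ to 3′ on the strand of its gene, with the element in capitals in either orientation and 10 bases on each side. They lie at chr3:169966780-169966807 on the plus strand, chr14:39103222-39103249 on the minus strand, chr5:134648596-134648623 on the plus strand, chr1:160343228-160343255 on the minus strand and chr22:38468040-38468067 on the plus strand, in the order SEC62, SEC23A, SEC24A, COPA and KDELR3.
SEC62: cctcctcgctCCACGTCAgagggaaccg
SEC23A: cccctcctctTGACGTGGcagaggcggc
SEC24A: tgagagtcggTGACGTGGcggcgaggcc
COPA: agagggtcgcTGACGTGGaggcgtccga
KDELR3: gccgccctggCCACGTCAccgcccggcc
A match of letters describes the window and not a bound site. Of the 11 measured genes with a match, the differences between Bf 140 nM and DMSO 0.6% had a median of -0.02 log2 and ran from -0.11 to 0.12, with 4 positive and 7 negative. The 35 measured genes with a window and no match had a median of -0.00. Of the 11 measured genes with a match, 1, KDELR3, is on the study's list of genes higher under bilirubin at 24 h, which is taken up below.

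No gene of the translocation and coat machinery passed the test after 1 h of Bf 140 nM. In limma, at an adjusted p (Benjamini-Hochberg over all 22215 probe sets) under 0.10, 0 of the 51 genes and 0 of their 97 probe sets passed, where 0% of all probe sets did. With SAM at an FDR of 10%, the test of the study's methods, 0 passed as well, both unpaired and paired by replicate number. At an unadjusted p under 0.05 there were 0 of the 51 genes in limma, where 0.0585% of all genes were, and 0 with the replicate number as a block, where 0.828% of all genes were. The smallest unadjusted p was 0.444 for COPA without the block and 0.108 for SEC22B with it, and every adjusted p was 1.00. The differences were small in both directions. They ran from -0.18 log2 for SEC24D to 0.27 for SEC22B, 23 were positive and 28 negative, and their median was -0.01 beside 0.01 for all genes. The median size of a difference was 0.04, beside 0.05 for all genes.

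How large a change could have gone unseen is given by the 95% confidence intervals. They lay within 1.5-fold either way for 26 of the 51 genes, where they did for 81.7% of all genes, and within 2-fold for 45 of the 51, where they did for 97.1%. With the replicate block, the interval lay within 1.5-fold for 50 of the 51, where it did for 99.9% of all genes, and the exception was SEC22B. The median interval reached 0.49 log2 to either side of a difference, beside 0.31 for all genes. It was 0.39 for the 6852 genes above the median level of all probe sets, where all 51 lie. With the block it reached 0.20, beside 0.19 for all genes and 0.19 for those above the median level. Without the block the median interval of these genes was therefore wider than that of all genes, and by less than that of genes above the median level. With the block it was close to both. The number of arrays, 3 in each group, limits all of these values.

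**Figure D1:**
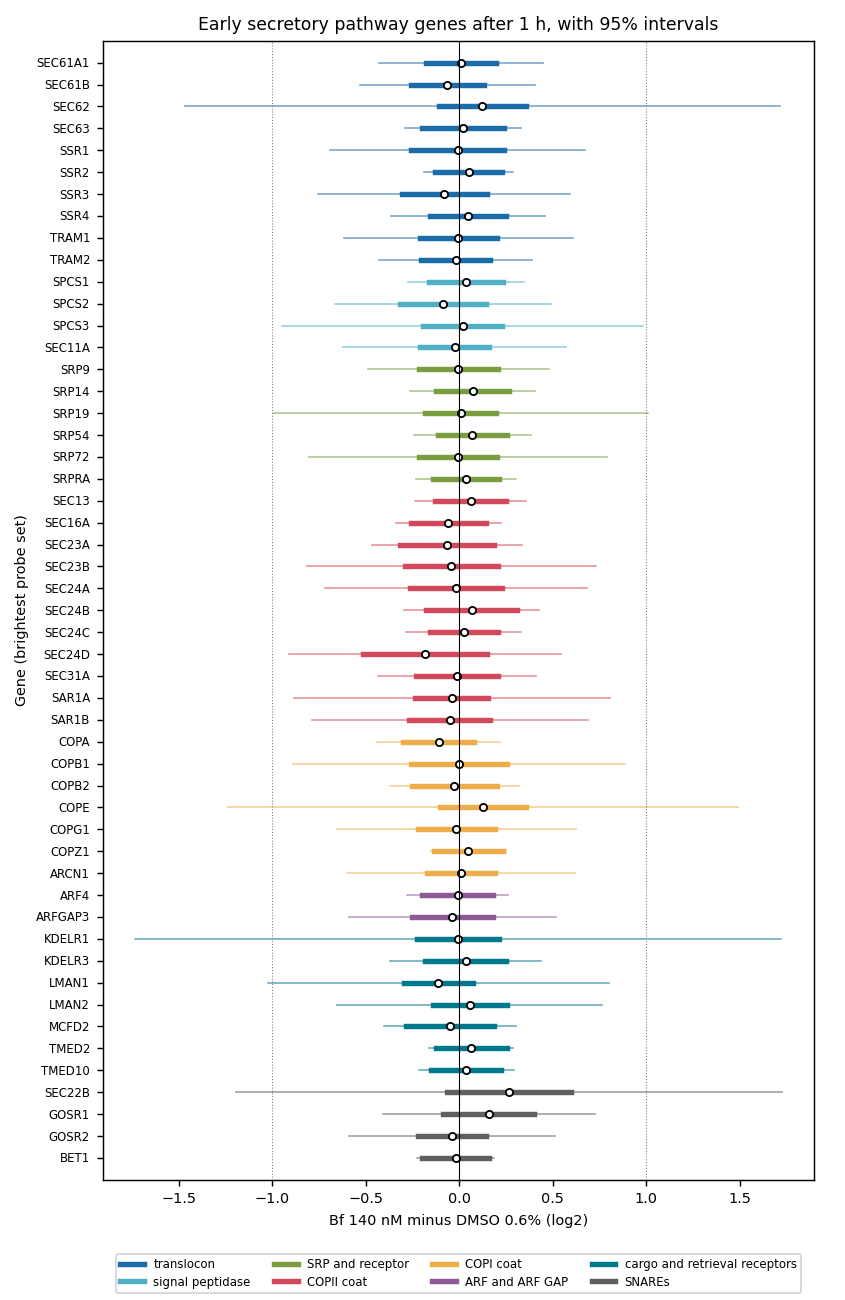
Difference between Bf 140 nM and DMSO 0.6% after 1 h (x axis, log2) for each of the 51 genes (y axis), as open circles. Thin lines are 95% intervals of limma without a block, thick lines are those with the replicate number as a block, colours give the role, and dotted lines mark 2-fold. Every interval crosses 0, and the thick lines all stay inside the dotted lines, while the thin lines of SEC62, SRP19, COPE, KDELR1, LMAN1 and SEC22B reach past them.

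The cells carried the markers of their label. Of the neuroblastoma markers, 9 of 11 measured lay above the median of all probe sets, among them PHOX2A, GATA3 and DBH, while TH and HAND2 did not. Blood cell markers lay above it in 0 of 5 and hepatocyte markers in 0 of 6, and mesenchymal markers did in 4 of 6. The mean level of the neuroblastoma list was 11.4 to 11.6 in the Bf 140 nM arrays and 11.3 to 11.6 in the DMSO 0.6% arrays, and that of the mesenchymal list was 8.27 to 8.42 and 8.31 to 8.44. Each array reads RNA of a whole culture, so fewer cells of a kind and less RNA per cell cannot be told apart. Array medians were between 7.73 and 7.97. The arrays of replicates 1 and 2 correlated with each other at 0.993 or more, whereas both replicate 3 arrays correlated with them at 0.961 to 0.977 and with each other at 0.995. The actin control probe sets, read near the 3′ end and near the 5′ end of the transcript, differed by 0.10 to 0.50 log2 in replicates 1 and 2, by 1.49 in replicate 3 under Bf 140 nM and by 1.90 in replicate 3 under DMSO 0.6%. Values given array by array are those of replicates 1, 2 and 3 in that order.

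All 51 genes lay above the median level of all probe sets, where 57.3% of all genes did. In no gene did the groups separate. The 3 Bf 140 nM arrays were all above the DMSO 0.6% arrays in 0 of the 51, where this held for 1.81% of all genes, and all below in 0, where it held for 0.577%. The same was 0 of all 97 probe sets. With 3 arrays against 3, an exact two-sided permutation test of a single gene cannot go below 0.1.

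For the SEC61 channel and its partners, 0 genes passed the test. Their 10 measured genes had a median difference of 0.00, from -0.08 for SSR3 of the translocon-associated protein complex to 0.12 for SEC62, and 5 were positive. SEC62, which helps short and fully made precursors into the channel, measured 11.05, 11.26 and 12.63 under Bf 140 nM and 10.62, 11.16 and 12.79 under DMSO 0.6%. Its replicate 3 arrays were the brightest of both groups, by 1.69 log2 over the other arrays, and the groups overlapped. The difference of 0.12 had an interval of -1.47 to 1.72, or -0.11 to 0.36 with the block. A further probe set of SEC62 gave -0.07, with replicate 3 higher by 0.50. SEC63, the membrane partner that recruits the chaperone BiP to the channel, measured 10.44, 10.28 and 10.32 under Bf 140 nM and 10.17, 10.25 and 10.57 under DMSO 0.6%. The pore subunit SEC61A1 measured 10.94, 10.84 and 10.57 under Bf 140 nM and 10.97, 10.92 and 10.43 under DMSO 0.6%. SSR1, the alpha subunit of the translocon-associated protein complex, measured 11.02, 11.05 and 11.39 under Bf 140 nM and 10.75, 10.95 and 11.79 under DMSO 0.6%. SEC63 and SSR1 were higher under Bf 140 nM in replicates 1 and 2 and lower in replicate 3, SEC61A1 the other way round, and the groups overlapped for each. TRAM1, which helps nascent chains into the membrane, measured 10.49, 10.25 and 10.80 under Bf 140 nM and 10.31, 10.21 and 11.03 under DMSO 0.6%, and its paralog TRAM2 measured 9.75, 9.66 and 9.29 under Bf 140 nM and 9.65, 9.77 and 9.34 under DMSO 0.6%. Their differences were -0.01 and -0.02. SEC61B, a small subunit beside the pore, differed by -0.06, and SSR2 and SSR4 by 0.05 and 0.05.

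Signal peptidase and SRP likewise held 0 genes that passed. The 4 signal peptidase genes had a median of -0.00. SPCS2, an accessory subunit, had their lowest difference, -0.09 with an interval of -0.67 to 0.49, and measured 12.13, 11.69 and 12.32 under Bf 140 nM and 11.89, 11.95 and 12.56 under DMSO 0.6%. It was higher under Bf 140 nM in replicate 1 and lower in replicates 2 and 3. SPCS3, needed for the enzyme to work, measured 10.64, 10.66 and 11.48 under Bf 140 nM and 10.46, 10.55 and 11.72 under DMSO 0.6% on a probe set whose design can bind related transcripts, and its other probe set differed by -0.10. The catalytic subunit SEC11A differed by -0.03 and SPCS1 by 0.04. The 6 genes of SRP and its receptor had a median of 0.02, from -0.01 for SRP72 to 0.07 for SRP14, and 4 were positive. SRP54, the subunit that binds the signal sequence, differed by 0.07, SRP9, the partner of SRP14, by -0.00, and SRP19 by 0.01. SRPRA, the receptor subunit on the ER, measured 11.64, 11.55 and 11.38 under Bf 140 nM and 11.58, 11.52 and 11.35 under DMSO 0.6%. It was the one gene of the 51 that was higher under Bf 140 nM in each of the 3 replicate pairs (11.1% of all genes were), and those differences, 0.06, 0.02 and 0.03, were each under 0.1. Its other probe set gave -0.11, -0.13 and 0.16 in the pairs, and SRPRA did not keep 1 sign in all pairs after quantile normalization, with equal array medians or with its probe sets averaged.

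The COPII coat held the lowest difference. Its 11 genes had a median of -0.04, with 3 positive and 8 negative, and 0 passed the test. SEC24D, one of the SEC24 proteins that select cargo in the inner coat, measured 9.31, 9.91 and 8.89 under Bf 140 nM and 9.13, 9.83 and 9.71 under DMSO 0.6%. It was higher under Bf 140 nM in replicates 1 and 2 and lower in replicate 3, at -0.81, so that the difference of -0.18 (interval -0.91 to 0.54) came from 1 pair. Its other probe sets gave 0.01 and 0.15. SEC24A measured 8.92, 8.61 and 9.33 under Bf 140 nM and 8.54, 8.86 and 9.50 under DMSO 0.6%. SEC24B measured 10.78, 10.55 and 10.23 under Bf 140 nM and 10.39, 10.48 and 10.49 under DMSO 0.6%, and SEC24C measured 9.72, 9.66 and 9.49 under Bf 140 nM and 9.80, 9.57 and 9.43 under DMSO 0.6%. The 3 paralogs differed by -0.02, 0.07 and 0.02, with overlapping groups, and SEC24A and SEC24B had their highest difference in replicate 1.

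SEC23A, which joins SEC24 in the inner coat and stimulates SAR1, measured 9.52, 9.59 and 9.45 under Bf 140 nM and 9.27, 9.60 and 9.90 under DMSO 0.6%, and SEC23B measured 10.44, 10.61 and 10.97 under Bf 140 nM and 10.15, 10.62 and 11.37 under DMSO 0.6%. Both were higher under Bf 140 nM in replicate 1, near equal in replicate 2 and lower in replicate 3, and differed by -0.07 and -0.04. A dimmer probe set of SEC23A, singled out after its values were seen, gave -0.12, -0.12 and -0.12 in the replicate pairs, an even difference that still had an unadjusted limma p of 0.164 with the block. The small GTPase that starts the coat is made by a pair of genes. SAR1A measured 11.44, 11.37 and 12.19 under Bf 140 nM and 11.30, 11.44 and 12.37 under DMSO 0.6%, and SAR1B measured 8.88, 8.90 and 9.47 under Bf 140 nM and 8.66, 9.00 and 9.74 under DMSO 0.6%. Replicate 3 was the brightest in both groups for both, and the differences were -0.04 and -0.05. Of the outer coat, SEC13 measured 11.52, 11.32 and 11.32 under Bf 140 nM and 11.47, 11.38 and 11.12 under DMSO 0.6%, and SEC31A measured 11.64, 11.44 and 11.69 under Bf 140 nM and 11.42, 11.42 and 11.96 under DMSO 0.6%. SEC13 was higher under Bf 140 nM in replicate 3 and SEC31A lower there, and both overlapped between groups. SEC16A, which marks the ER exit sites where the coat forms, differed by -0.06.

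**Figure D2:**
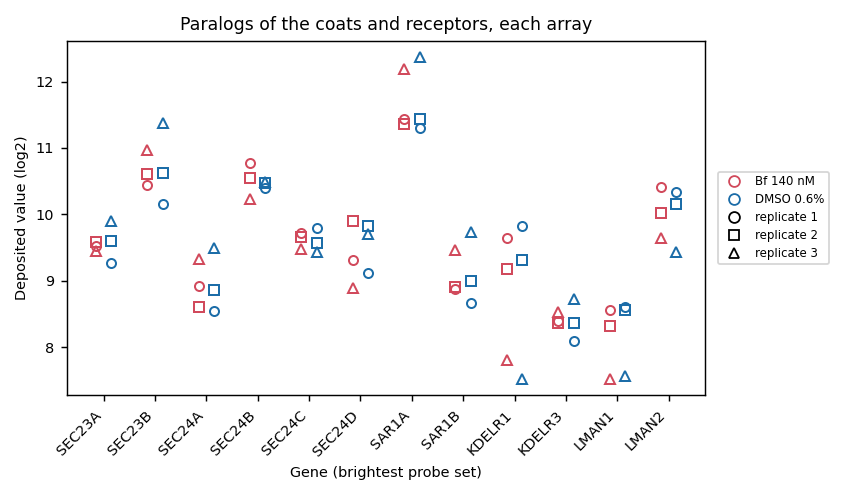
Deposited log2 value (y axis) of the paralogs SEC23A and SEC23B, SEC24A to SEC24D, SAR1A and SAR1B, KDELR1 and KDELR3, and LMAN1 and LMAN2 (x axis) on each array, with Bf 140 nM in red, DMSO 0.6% in blue and a symbol for each replicate number. For SAR1A, SAR1B and SEC23B both triangles of replicate 3 lie on top and for KDELR1 and LMAN1 at the bottom, in both colours, and in no gene do the colours separate. Levels of different genes are not comparable.

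The COPI coat, whose 7 measured subunits form the coatomer, had a median of -0.00 with 3 positive and 4 negative. COPA, the alpha subunit, measured 11.11, 10.89 and 10.67 under Bf 140 nM and 11.07, 11.06 and 10.88 under DMSO 0.6%. It was near equal in replicate 1 and lower under Bf 140 nM in replicates 2 and 3, the groups overlapped, and the difference of -0.11 had an interval of -0.44 to 0.22. COPE, the epsilon subunit, measured 11.47, 11.19 and 10.13 under Bf 140 nM and 11.49, 11.25 and 9.67 under DMSO 0.6%. Its replicate 3 arrays were the dimmest of both groups, at -1.45 log2 from the others, and they alone held a difference over 0.1, so that its difference of 0.13 had the interval -1.24 to 1.49, or -0.10 to 0.36 with the block. The other subunits, COPB1, COPB2, COPG1, COPZ1 and ARCN1, differed by -0.00, -0.03, -0.01, 0.05 and 0.01. The GTPase ARF4 measured 12.93, 12.86 and 12.63 under Bf 140 nM and 12.78, 12.92 and 12.75 under DMSO 0.6%, and ARFGAP3, which switches off ARF proteins on the coat, measured 8.37, 8.80 and 8.78 under Bf 140 nM and 8.30, 8.66 and 9.10 under DMSO 0.6%. Their differences were -0.01 and -0.04, higher under Bf 140 nM in replicate 1 and lower in replicate 3 for both.

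Cargo and retrieval receptors had a median of 0.03, with 4 of 7 positive. LMAN1, the lectin that with MCFD2 carries coagulation factors out of the ER, measured 8.56, 8.32 and 7.53 under Bf 140 nM and 8.61, 8.57 and 7.57 under DMSO 0.6%. It was the one gene of the 51 that was lower under Bf 140 nM in each of the 3 replicate pairs (5.17% of all genes were). Those differences were -0.05, -0.24 and -0.04, their mean -0.11 had an interval of -1.02 to 0.80, or -0.30 to 0.07 with the block, and a further probe set of LMAN1 gave -0.06 with a positive first pair. MCFD2 measured 10.67, 10.77 and 10.57 under Bf 140 nM and 10.44, 10.76 and 10.95 under DMSO 0.6%, and LMAN2, a related lectin, measured 10.41, 10.03 and 9.65 under Bf 140 nM and 10.34, 10.16 and 9.43 under DMSO 0.6%. Neither had 1 sign in all pairs, and the groups overlapped. KDELR1, a receptor that returns proteins with a KDEL tail to the ER, measured 9.65, 9.18 and 7.81 under Bf 140 nM and 9.82, 9.31 and 7.52 under DMSO 0.6%. Its replicate 3 arrays stood at -1.82 log2 from the others, its difference was -0.01, and its interval of -1.73 to 1.72 narrowed to -0.23 to 0.21 with the block. KDELR3 measured 8.40, 8.36 and 8.53 under Bf 140 nM and 8.10, 8.37 and 8.72 under DMSO 0.6%, with a difference of 0.03, and its other probe sets gave -0.08 and 0.10.

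The p24 proteins TMED2 and TMED10 form cargo receptors that cycle with both coats. TMED2 measured 12.02, 12.01 and 11.99 under Bf 140 nM and 11.81, 11.99 and 12.04 under DMSO 0.6%, and TMED10 measured 11.94, 11.91 and 12.01 under Bf 140 nM and 11.77, 11.90 and 12.08 under DMSO 0.6%. Their differences were 0.06 and 0.04, the highest in replicate 1 for both. Dimmer probe sets of these genes gave other values. A probe set of TMED2 measured 10.43, 10.05 and 8.62 under Bf 140 nM and 10.25, 9.95 and 8.25 under DMSO 0.6%, was higher under Bf 140 nM in all 3 pairs and differed by 0.22. It was the one of the 97 probe sets with an unadjusted limma p under 0.05 with the block, 0.0274, where 1.22% of all probe sets were. Its interval was 0.03 to 0.41 with the block. Without the block its interval was -1.40 to 1.84 and its unadjusted limma p was 0.755. Its adjusted limma p was 1.00, and the third TMED2 probe set gave -0.03. A dimmer probe set of TMED10 gave 0.21, -0.17 and -0.91 in the pairs and a mean of -0.29.

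The SNAREs held the highest difference. SEC22B, which acts on vesicles between the ER and the Golgi apparatus, measured 10.64, 10.96 and 11.80 under Bf 140 nM and 9.99, 10.44 and 12.17 under DMSO 0.6%. Both replicate 3 arrays were the brightest of their group, and within replicates 1 and 2 the Bf 140 nM arrays were higher by 0.64 and 0.53, while within replicate 3 the Bf 140 nM array was lower, a difference of -0.37. The mean difference of 0.27 had an interval of -1.20 to 1.73, or -0.07 to 0.60 with the block. Leaving out 1 array took it to -0.17 without DMSO 0.6% replicate 1 and to 0.92 without DMSO 0.6% replicate 3. In a limma fit chosen after seeing the data, on replicates 1 and 2 alone with the replicate number as a block, SEC22B differed by 0.59 with an adjusted p of 0.000119, the one gene of the 51 to pass there, where 8 of all 11963 genes (0.0669%) did. That fit rests on 2 arrays against 2 and assigned all probe sets the same standard error, and without the block the same arrays gave an adjusted p of 1.00. SEC22B has 1 probe set, and the annotation lists the pseudogenes SEC22B2P, SEC22B3P and SEC22B4P, whose transcripts that probe set may also read. GOSR1, a SNARE of the cis-Golgi, measured 10.67, 10.19 and 10.81 under Bf 140 nM and 10.13, 10.26 and 10.80 under DMSO 0.6%. Its difference of 0.16 (interval -0.41 to 0.73) came from replicate 1, at 0.54, and its other probe sets gave -0.08 and -0.09. GOSR2 measured 9.49, 9.20 and 8.90 under Bf 140 nM and 9.58, 9.27 and 8.86 under DMSO 0.6%, and BET1 measured 10.00, 9.88 and 9.84 under Bf 140 nM and 9.95, 9.94 and 9.90 under DMSO 0.6%. These partners of SEC22B in fusion differed by -0.04 and -0.02.

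The direction of the differences changed with the replicate number across the set. In replicate 1 the Bf 140 nM array was higher than the DMSO 0.6% array for 44 of the 51 genes, where it was for 58.9% of all genes and 71.1% of the 6852 genes above the median level, with a median of 0.16, beside 0.03 for all genes and 0.09 for those above the median level. In replicate 2 it was higher for 23, where it was for 47.3% and 40.5%, with a median of -0.01, beside -0.01 for all genes and -0.02 for those above the median level. In replicate 3 it was higher for 14 and lower for 37, where it was higher for 54.5% and 43.0%, with a median of -0.15, beside 0.02 and -0.03. The medians of replicates 1 and 3 thus had opposite signs and cancelled in the mean. By role the medians in replicate 1 were positive from 0.04 for COPI to 0.30 for the SNAREs, and those in replicate 3 negative from -0.02 for the SNAREs to -0.26 for COPII. After quantile normalization the median of COPI in replicate 1 turned negative, and those of SRP, COPI, the cargo and retrieval receptors and the SNAREs in replicate 3 turned positive, while COPII was at 0.12, 0.02 and -0.15 in replicates 1, 2 and 3. Over the 51 genes, the medians after quantile normalization in replicates 1, 2 and 3 were 0.06, 0.02 and -0.06, with 35, 28 and 20 genes positive. Of all genes 51.7%, 50.3% and 50.2% were positive there, and of those above the median level 54.5%, 50.5% and 50.4%. With equal array medians the medians of the 51 genes were 0.14, 0.00 and -0.20, with 42, 26 and 11 positive. Of all genes 54.4%, 51.2% and 43.9% were positive there. The genes above the median level shifted in the same order, with 67.3%, 44.7% and 33.7% positive and medians of 0.07, -0.01 and -0.08. Each of these differences is between 1 array and 1 array, so none has an error of its own. The 3′ to 5′ difference of actin was 1.49 under Bf 140 nM and 1.90 under DMSO 0.6% in replicate 3. It was 0.12 and 0.10 in replicate 1, and 0.50 and 0.37 in replicate 2. Its part in the direction of the differences was not tested.

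**Figure D3:**
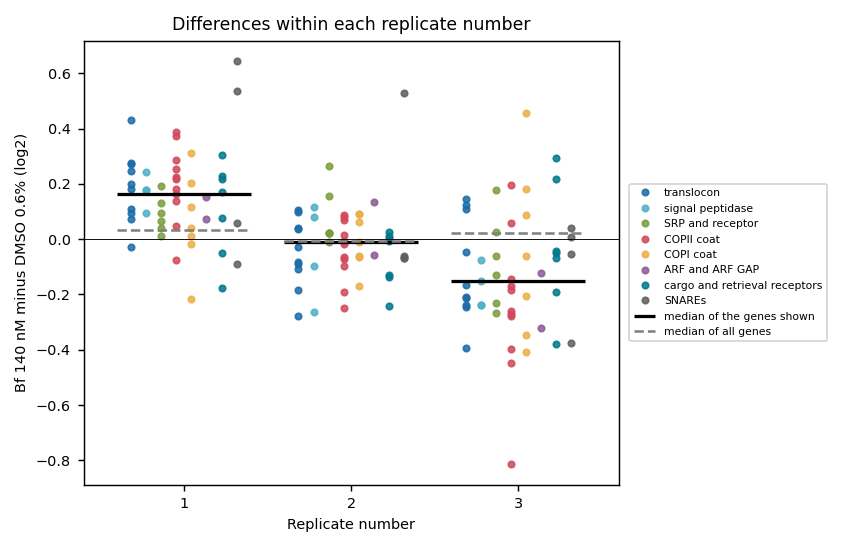
Bf 140 nM minus DMSO 0.6% (y axis, log2) within replicates 1, 2 and 3 (x axis), 1 point per gene, coloured by role. The solid line, the median of the 51 genes, goes from 0.16 over -0.01 to -0.15, while the dashed line, the median of all genes, stays between -0.01 and 0.03. The genes above the median level, as all 51 are, have no line here, and their medians were 0.09, -0.02 and -0.03.

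The replicate 3 arrays stood farther from the others than the treatments stood from each other. The mean of both replicate 3 arrays was over 0.5 log2 above that of the other arrays for 14 of the 51 genes, where it was for 8.39% of all genes, and over 0.5 below for 6, where it was for 7.88%. The highest were SEC62 at 1.69, SEC22B at 1.48, SRP19 at 1.07 and SPCS3 at 1.02, and the lowest were KDELR1 at -1.82, COPE at -1.45, LMAN1 at -0.97 and LMAN2 at -0.70. The median size of this distance was 0.39, beside 0.19 for all genes and 0.28 for the genes above the median level. It was often unequal between probe sets of 1 gene. For COPA the 3 probe sets gave -0.26, -2.03 and 0.32. For TMED2 they gave 0.05, -1.74 and -2.04, and for SAR1A 0.89, -0.02 and -0.19. Of the 28 genes with more than 1 probe set, 14 (50%) had probe sets over 1 log2 apart in this distance, beside 754 of 4310 genes (17.5%) among all genes, a comparison not matched for level or for the number of probe sets. The differences of actin between its 3′ and 5′ probe sets moved with replicate 3 as given above, and their part in these distances was not tested.

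**Figure D4:**
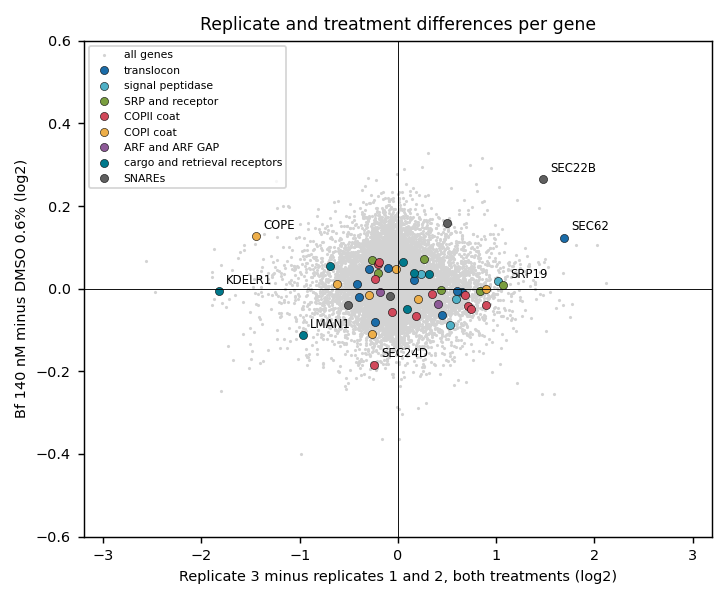
Mean of both replicate 3 arrays minus the mean of the other 4 arrays (x axis, log2) against Bf 140 nM minus DMSO 0.6% (y axis, log2), with the 51 genes as coloured points by role and all 11963 genes in grey. The 51 genes spread from -1.82 to 1.69 along the x axis and from -0.18 to 0.27 along the y axis.

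Probe sets of the same gene also disagreed on the sign of the treatment difference. Of the 28 genes with more than 1 probe set, 21 (75%) had differences of both signs, beside 2496 of 4310 genes (57.9%) among all genes. This comparison too was not matched for level or for the number of probe sets, and a gene with more probe sets can more easily hold both signs. Examples were GOSR1, with 0.16, -0.08 and -0.09, and SEC24D and TMED10 as given above.

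For 1 h of treatment the study itself reports no significant expression change. It drew up a list of probe sets from its 24 h arrays, which were not analysed here. It compared free bilirubin with the solvent by SAM at an FDR of about 10%, and reports every listed gene as higher under bilirubin. The list shares 257 probe sets with the 22215 tested here, counting only entries with a gene symbol. Of the 97 probe sets of the 51 genes, 20 are on it, from 17 genes. Whether this share exceeds that of all probe sets was not tested. At 1 h, 0 of the 20 passed in limma with or without the block and 0 had an unadjusted p under 0.05 in either fit. They had a median difference of -0.01, ran from -0.18 to 0.06 and were positive in 7 and negative in 13. The 76 probe sets of these genes that are not on the list also had a median of -0.01. The groups overlapped for all 20. By replicate number their medians were 0.16, -0.00 and -0.21, which is the order seen over the whole set. The highest upper bound of a 95% interval was 0.73 log2, or 0.25 with the block, and 16 of the 20 upper bounds lay under 1.5-fold, or all 20 with the block. The 17 genes were SEC61A1, SEC63, SSR1, TRAM1, SPCS3, SEC13, SEC23B, SEC24D, SEC31A, ARF4, ARFGAP3, KDELR3, MCFD2, TMED2, TMED10, GOSR2 and BET1. Of these 17, only KDELR3 is among the 11 measured genes with TGACGTGG in a promoter window. Whether the listed genes carry these letters more or less often than the others was not tested. For GOSR2 and SPCS3 the listed probe set was not the brightest, and it differed by -0.07 and -0.10. A further probe set, annotated to SSR1 by the platform, is named there for another gene and was left out.

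Other genes of the early secretory pathway, a list of oligosaccharyltransferase subunits, tethers, SNAREs, further coat subunits and receptors, also held 0 that passed at 1 h. Of its 70 genes 59 were measured, 0 passed in either limma or SAM, 0 had an unadjusted p under 0.05, and their median difference was 0.01, from -0.16 for NSF, the ATPase that takes SNARE complexes apart, to 0.18 for MAGT1, a subunit of oligosaccharyltransferase. The smallest unadjusted limma p among them, 0.221, belonged to LMAN1L, a relative of LMAN1, with a difference of 0.14. After it came TRAPPC10 at 0.17, SEC31B at 0.13 and COPZ2 at 0.12. Their medians by replicate number were 0.10, -0.05 and 0.04, and the one in replicate 3 was -0.01 with equal array medians. How these differ from the medians of the 51 genes was not tested. The 21 genes of the unfolded protein response list, all measured, held 0 that passed, 0 at an unadjusted p under 0.05 and a median of -0.00, from -0.12 for the chaperone CALR to 0.14 for DDIT3, a transcription factor of ER stress.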

How the data were processed

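Log2 expression values of 6 Affymetrix GeneChip arrays were analysed, 3 of Bf 140 nM and 3 of DMSO 0.6%, all at 1 h. Cell intensities came from GCOS and were normalized by the authors with VSN in R 2.5.0, and the deposited values were taken as log2 values. The summary of probes into probe sets and the set of arrays normalized together are not given in the sources used here. The base of 2 was inferred from the VSN method and is not settled by the values. All probe sets of the arrays were used, and the Present-call filter of the study's methods was not applied. Arrays have no read depth, and their number limits the precision.

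Gene symbols came from the platform annotation. Of 22215 probe sets left after 62 controls, 19064 had 1 symbol, and only these named a gene. The others had several (1043) or none (2108). Promoter windows were those of RefSeq for GRCh38.p14.

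The groups were compared with limma 3.58.1 in R 4.3.3 (lmFit and eBayes) over all probe sets, with Benjamini-Hochberg adjustment and a threshold of 0.10. SAM was rewritten from its description and run over 20 label permutations, or 8 sign changes when paired. Both were tested on simulated data. Values were given array by array for the 4 highest and 4 lowest differences, for paralogs, for genes whose groups do not overlap and for genes on the study's 24 h list, and for other lists up to 4 genes with the smallest p were named. SRPRA and the dimmer probe sets of SEC23A, TMED2 and TMED10 were added after their values were seen. The genes, role lists, markers and tests were chosen with earlier results of these data known.

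Whether the replicate numbers pair the arrays was checked on the values. Across probe sets, an array's distance from the mean of its group correlated with that of the array of the same number at 0.725, 0.783 and 0.880 for replicates 1, 2 and 3, so the numbers were taken as pairs. The replicate 3 arrays stand apart, and their weight in the group means can lift the correlations of replicates 1 and 2. No source ties a number to a shared day. The study's methods name no pairing, so the analysis without a block leads and the replicate block is an alternative. Other alternatives were quantile normalization, equal array medians, filters on low values, array weights, trend and robust variance, each array left out in turn, other thresholds, SAM and averaging a gene's probe sets. Leaving out both replicate 3 arrays was added after seeing the data.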

Additional observations from a re-analysis of the deposited data

How the results depend on the processing

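The count of genes of the set that passed, 0 of 51, was 0 under 18 of 19 alternatives, the replicate block among them. The exception, chosen after seeing the data, was limma without both replicate 3 arrays and with the replicate block, where 1 gene passed, SEC22B at 0.59 log2, beside 0.0669% of all genes. Over the leave-one-out fits that count was 0 throughout, and for the other early secretory pathway genes it was 0 under all 19. With the replicate block the median difference of the 51 genes was -0.01, as without it, because the design is balanced, and the block changed no call. The median lay between -0.06 and 0.11 when each array was left out in turn and was 0.01 after quantile normalization. The count of genes with 1 sign in all 3 replicate pairs, 2, became 6 after quantile normalization and 1 when a gene's probe sets were averaged, and LMAN1 was among them as deposited, after quantile normalization and with equal array medians. The count whose groups do not overlap was 0 under both normalizations, both filters and averaging. Of the 51 differences, none of them called, 4 had the other sign after quantile normalization, 4 with equal array medians, 23 with array weights and 10 to 26 when an array was left out. Averaging the probe sets moved TMED10 from 0.04 to -0.13. The cause of these shifts was not tested. The number of arrays, 3 in each group, limits the changes that could be detected.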
